A study of Mus musculus with 45 samples.

Results

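The 7 genes described here encode the Fos and Jun proteins, the subunits of the transcription factor AP-1. They are Fos, Fosb, Fosl1 and Fosl2 on the Fos side and Jun, Junb and Jund on the Jun side, and they were chosen by family membership. Each matched 1 row of the 54532 genes in the table of counts, so all 7 of 7 members were measured. They were followed across 9 conditions of mouse hippocampal primary neurons (strain C57BL/6N), cultured from newborn (P0) mice with rat serum and treated with AraC, an inhibitor of dividing cells. The design asks how genes that respond to synaptic activity change when firing is stopped, with or without an excitotoxic signal.

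The control received no treatment. In 3 conditions the cultures were exposed to 50 µM bicuculline (Bic), a blocker of GABA type A receptors that releases synchronous action potential (AP) firing, for 0.5 h, 1 h or 2 h. In the short protocol (SP), cultures that had fired under Bic for 0.5 h then spent 0.5 h with 1 µM tetrodotoxin (TTX) as well, a sodium channel blocker that silences APs, or with 1 µM TTX plus 30 µM NMDA, which in the bath reaches NMDA receptors outside synapses and is excitotoxic. In the long protocol (LP), Bic acted for 1 h before an intervention of 1 h, which was TTX, TTX/NMDA or 50 µM TBOA, a glutamate uptake inhibitor that causes glutamate spillover. By the study's methods Bic stayed on during these interventions. Each condition had 5 libraries, 1 from each of 5 culture preparations numbered 1, 3, 6, 7 and 8, and values given in series below follow that order. The difference of TTX against Bic of the same total length is called the passive effect, TTX/NMDA against TTX the active effect, and TTX/NMDA against Bic the total effect.

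AP-1 is a dimer of basic leucine zipper proteins. Jun proteins pair with one another or with Fos proteins, whereas Fos proteins need a Jun partner. Fos, Fosb and Junb are classical immediate early genes, transcribed from factors already present in the cell such as CREB and the SRF/ELK1 complex once calcium enters a firing neuron, and Fos is the standard marker of a recently active neuron. Jun is induced by activity and by stress kinases of the JNK group, Fosl1 (Fra-1) and Fosl2 (Fra-2) commonly follow with delay, and Jund is present in resting cells. Transcripts such as that of Fos carry AU-rich elements and are short-lived. Fosb is also spliced to a shortened form, ΔFosB, which counts per gene cannot tell apart from the full form.

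The genes lie apart from one another in the genome (GRCm38). Fos is at chr12:85473890-85477273 on the plus strand, Fosb at chr7:19302696-19310051 on the minus strand, Fosl1 at chr19:5447547-5455946 on the plus strand and Fosl2 at chr5:32135801-32157842 on the plus strand. Jun is at chr4:95049034-95052222 on the minus strand. Junb (chr8:84974484-84978718, minus strand) and Jund (chr8:70698949-70700616, plus strand) share a chromosome. All 7 are protein coding, and their exons together span 2352 bp in Fos, 6243 bp in Fosb, 2033 bp in Fosl1, 9680 bp in Fosl2, 3189 bp in Jun, 2301 bp in Junb and 1668 bp in Jund.

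The 4 members called after 0.5 h of Bic, described below, are Fos, Fosb, Jun and Junb, and the 250 bases before their RefSeq transcription starts (GRCm38.p6) are shown because these genes moved first. They are written 5′ to 3′ on the strand of the gene, with TGACG, the core of the CREB binding site, in capitals.
Fos (chr12:85473640-85473889, plus strand): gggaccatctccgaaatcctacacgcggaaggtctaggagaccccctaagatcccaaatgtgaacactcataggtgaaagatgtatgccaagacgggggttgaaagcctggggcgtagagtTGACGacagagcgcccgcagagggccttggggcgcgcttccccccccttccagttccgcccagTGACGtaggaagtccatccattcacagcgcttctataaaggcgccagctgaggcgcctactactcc
Fosb (chr7:19310046-19310295, minus strand): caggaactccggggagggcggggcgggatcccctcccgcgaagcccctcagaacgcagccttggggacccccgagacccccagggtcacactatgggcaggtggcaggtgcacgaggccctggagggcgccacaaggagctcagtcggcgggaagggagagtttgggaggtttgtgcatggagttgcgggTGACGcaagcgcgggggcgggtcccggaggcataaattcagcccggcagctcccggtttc
Junb (chr8:84978749-84978998, minus strand): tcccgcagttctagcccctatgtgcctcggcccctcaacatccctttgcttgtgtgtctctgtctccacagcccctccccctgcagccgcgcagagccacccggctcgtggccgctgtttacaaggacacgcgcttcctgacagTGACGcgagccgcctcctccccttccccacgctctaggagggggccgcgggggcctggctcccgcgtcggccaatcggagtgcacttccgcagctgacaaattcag
Jun (chr4:95052223-95052472, minus strand): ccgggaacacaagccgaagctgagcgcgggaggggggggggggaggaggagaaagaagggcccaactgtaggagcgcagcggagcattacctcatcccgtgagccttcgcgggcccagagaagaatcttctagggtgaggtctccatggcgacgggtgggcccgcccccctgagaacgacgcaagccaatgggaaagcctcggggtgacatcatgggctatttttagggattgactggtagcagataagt
TGACG was searched on both strands. It was found in Fos, starting 129 and 66 bases before the transcription start, in Fosb at 60 bases and in Junb at 106 bases, and it was not in these letters in the windows of Jun, Fosl2 or Jund. For comparison, 17.8% of 32851 promoters of the same length held it. The full palindrome TGACGTCA, which contains TGACG, the AP-1 site TGANTCA and the CArG box had no match in the windows of these 6 members, against 1.55%, 6.75% and 1.47% of all promoters. Sites more than 250 bases before the start, or after it, were not searched, so these genes may hold such sites elsewhere. RefSeq and the gene models above place the start of Fosb, Fosl2, Junb and Jund at different positions, and Fosl1 was not among the promoters used here.

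The 45 libraries held 11316580 to 81129276 reads on genes (median 26239614). Values are given as CPM, the read count scaled to library size with TMM factors, and tests are edgeR's quasi-likelihood test on the libraries of the groups compared, with Benjamini-Hochberg adjustment over all genes that had at least 1 read. A gene with an adjusted p under 0.05 was called. A paired fit, with the culture preparation as a block over the genes that pass edgeR's low-count filter, is given where it changes a call. All 8 neuronal markers were detected, with a summed level of 6437 to 8558 CPM over the libraries. Astrocyte markers (6 of 6 detected) summed to 374 to 1429 CPM and oligodendrocyte lineage markers to 99.04 to 309 CPM. Microglial markers stayed between 4.43 and 8.76 CPM, and endothelial markers between 0.890 and 3.00 CPM, with the median of Cldn5 at 0. The RNA is of the whole culture, so that fewer cells of a type and less RNA per cell cannot be told apart.

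AP firing raised every member of the family, but not at the same time. After 0.5 h of Bic, 4 of 7 members were called, all higher, against 0.289% of 30133 genes tested. After 1 h and after 2 h of Bic all 7 were called higher, against 0.965% of 30765 and 4.24% of 30929 genes. Fos, Fosb, Junb and Jun were the 4 members called at 0.5 h, whereas Fosl1, Fosl2 and Jund were called from 1 h on.

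Fos had 40.9, 29.04, 32.9, 45.95 and 33.3 CPM in the control and 417, 556, 543, 559 and 529.6 CPM after 0.5 h of Bic. It had 1089, 869, 1068, 1089 and 1070.2 CPM after 1 h and 1647, 1652, 1748, 1518 and 1129 CPM after 2 h. The groups at successive times did not overlap, and every preparation was higher at the later time. On the log2 scale Fos was higher than in the control by 3.84 ± 0.11 (SE) at 0.5 h, 4.83 ± 0.11 at 1 h and 5.39 ± 0.13 at 2 h (adjusted p = 2.6e-34, 3.2e-30 and 1.2e-26), a rise to 41.9 times the control level.

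Fosb had the largest fold change of the family. Its control libraries held 11.9, 4.98, 9.78, 10.5 and 13.5 CPM. After 0.5 h it had 131, 237, 279.8, 220.3 and 263 CPM, after 1 h 698, 492, 641, 668 and 752 CPM and after 2 h 1365, 1184, 1327, 1085 and 994 CPM. The 4 groups did not overlap. The log2 fold changes against the control were 4.50 ± 0.16, 6.01 ± 0.16 and 6.88 ± 0.16 (adjusted p = 1.4e-30, 6.8e-29 and 1.2e-26), so that after 2 h Fosb stood at 118 times its control level.

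Junb, a Jun protein that is a weaker activator than Jun on many AP-1 sites, followed the same course. It rose from 51.4, 38.7, 40.7, 60.5 and 45.5 CPM in the control to 369, 369, 369, 432 and 366 CPM at 0.5 h. At 1 h it had 837, 569, 754, 821 and 955 CPM and at 2 h 1190.4, 1101, 1299.6, 1048 and 932 CPM. Libraries at 1 h and 2 h overlapped, because preparation 8 had 955 CPM at 1 h and 932 CPM at 2 h, while the other 4 preparations were higher at 2 h. The log2 fold changes against the control were 3.00 ± 0.10, 4.05 ± 0.12 and 4.54 ± 0.11 (adjusted p = 4.9e-31, 1e-26 and 5.7e-26).

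Jun rose less, from a higher starting level. It ranged over 94.4 to 121 CPM in the control, 220.1 to 271 CPM at 0.5 h, 370.0 to 544 CPM at 1 h and 499.9 to 808 CPM at 2 h. The control did not overlap with any Bic group. Its level was 2.18 times the control at 0.5 h (log2 fold change 1.13 ± 0.09, adjusted p = 5.3e-15) and 5.98 times at 2 h (log2 fold change 2.58 ± 0.10, adjusted p = 1.8e-20).

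Fosl1 was close to the limit of detection before firing. The control libraries held 6, 10, 11, 19 and 9 reads of it, or 0.522, 0.453, 0.377, 0.380 and 0.468 CPM, and those after 0.5 h of Bic 5, 15, 13, 22 and 13 reads, or 0.400, 0.698, 0.796, 0.819 and 0.758 CPM. These groups overlapped, and the difference did not pass the adjustment at this depth (log2 fold change 0.74, 95% interval 0.10 to 1.37, adjusted p = 0.84). At 1 h it had 2.66, 2.06, 3.02, 3.73 and 4.62 CPM and at 2 h 6.399, 7.18, 9.74, 6.45 and 6.24 CPM, higher than the control in 5 of 5 preparations at both times. The log2 fold change was 2.90 ± 0.25 at 1 h and 4.08 ± 0.20 at 2 h (adjusted p = 8.2e-12 and 3.8e-18).

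Fosl2 had 158, 135, 197, 187 and 189.9 CPM in the control and 139, 207, 213, 210.2 and 205 CPM after 0.5 h of Bic, with overlapping groups and a log2 fold change of 0.17 (95% interval -0.03 to 0.37, adjusted p = 0.84). It then had 377, 306, 411, 395 and 421 CPM at 1 h and 862, 776, 924, 799 and 784 CPM at 2 h. All libraries at 2 h were above all at 1 h, and all at 1 h above those at 0.5 h and the control. Fosl2 stood at 2.196 times its control level at 1 h and 4.74 times at 2 h (log2 fold changes 1.13 ± 0.10 and 2.24 ± 0.09, adjusted p = 7e-12 and 7e-20).

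Jund had the smallest fold change. It ranged over 141 to 195 CPM in the control, 169.7 to 272 CPM at 0.5 h, 249.6 to 360.1 CPM at 1 h and 383 to 438 CPM at 2 h. At 0.5 h it was higher than the control in 5 of 5 preparations, but the groups overlapped and it was not called (log2 fold change 0.38 ± 0.10, adjusted p = 0.18). It was called there without preparation 3, 6 or 8, at log2 fold changes of 0.45, 0.40 and 0.40. At 2 h it reached 2.46 times the control (log2 fold change 1.30 ± 0.09, adjusted p = 6.7e-14).

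**Figure D1:**
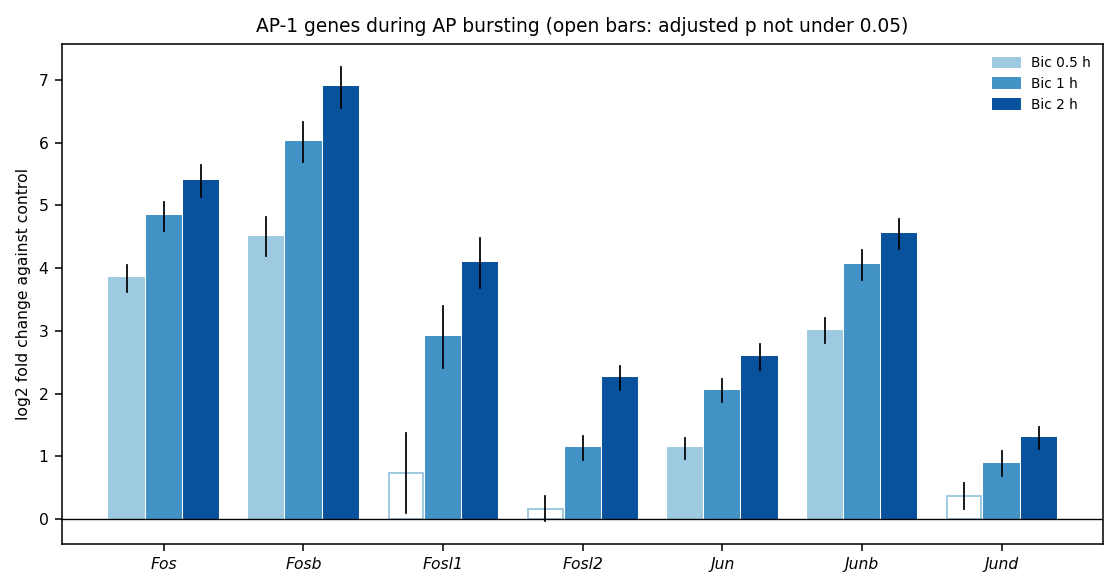
Log2 fold change against the control (vertical axis) of each AP-1 gene after 0.5 h, 1 h and 2 h of Bic. Bars are the fitted values, vertical lines their 95% intervals, and open bars genes that were not called. Every gene has its tallest bar at 2 h, from 1.30 for Jund to 6.88 for Fosb, and the open bars are those of Fosl1, Fosl2 and Jund at 0.5 h.

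All 7 members were still rising between 1 h and 2 h. From 0.5 h to 1 h of Bic all 7 were called higher, against 0.634% of 30267 genes, and from 1 h to 2 h again all 7, against 2.53% of 30975 genes. In the second step Fos was 1.48 times and Junb 1.41 times its level at 1 h, whereas Fosl1 was 2.27 times and Fosl2 2.16 times its level. For Fosl2 the log2 fold change was 0.97 ± 0.08 in the first step and 1.11 ± 0.07 in the second, and for Fos 0.99 ± 0.08 and 0.56 ± 0.08. Both steps share the 1 h libraries. The 0.5 h library of preparation 1 was the lowest of its group for Fos, Fosb, Fosl1 and Fosl2. Without preparation 1 the log2 fold changes at 0.5 h were 3.95, 4.69, 0.90 and 0.24 for these genes, with the same calls. In the fit over genes that passed edgeR's low-count filter, Jund was no longer called from 0.5 h to 1 h (log2 fold change 0.50).

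The make-up of the family shifted during firing. On a per-length scale (RPKM, CPM divided by the length of the exons in kilobases), the 7 genes summed to 191 ± 19.1 RPKM (SD, n = 5) in the control and 1878 ± 239 RPKM after 2 h of Bic. Jund made up 52.1% ± 4.02 of this sum in the control, Jun 18.5% ± 1.82, Junb 10.8% ± 1.43, Fosl2 9.50% ± 1.97 and Fos 8.11% ± 1.20. Fosb and Fosl1 were minor there, at 0.862% ± 0.298 and 0.115% ± 0.0196. After 0.5 h of Bic, Fos had become the largest component with 34.1% ± 3.15, Junb followed with 25.5% ± 0.755, and Jund was at 19.9% ± 3.92. After 2 h the shares were 34.7% ± 1.90 for Fos, 25.8% ± 0.746 for Junb, 13.3% ± 1.16 for Jund, 11.2% ± 0.777 for Jun and 10.2% ± 0.468 for Fosb. In every treated condition Fos and Junb were the members with the highest shares.

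**Figure D2:**
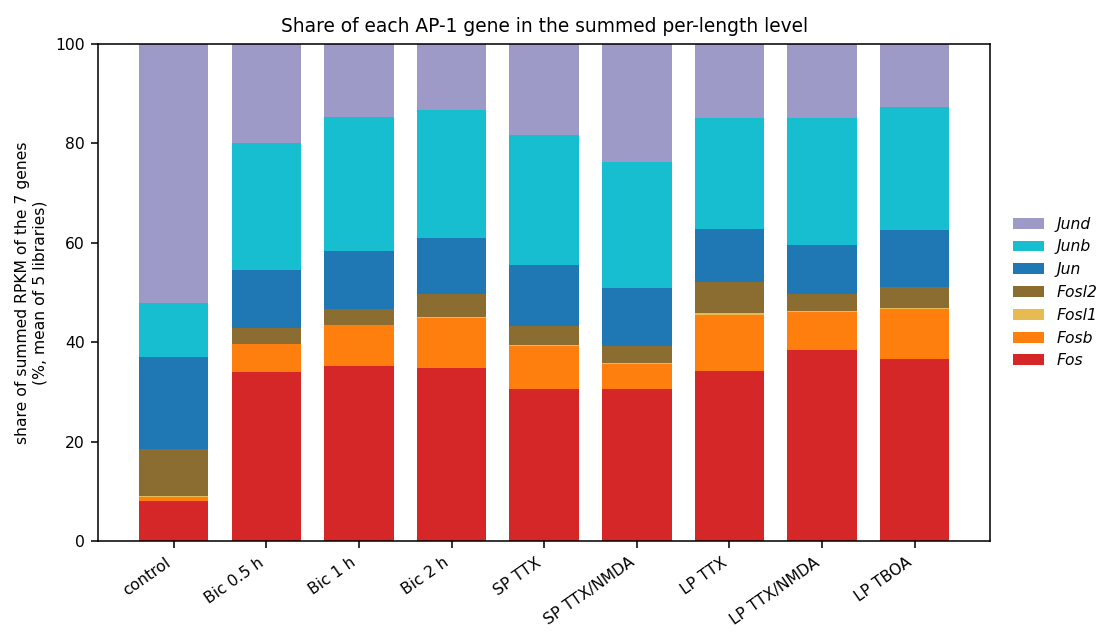
Share of each AP-1 gene in the summed RPKM of the family (vertical axis, percent, mean of 5 libraries) in the 9 conditions. Jund takes 52.1% ± 4.02 (SD) of the control bar, and Fos and Junb together take more than any other pair of genes in every treated condition.

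Stopping APs with TTX lowered most of the family below the level of cultures that kept firing. In the SP, 5 of 7 members were called lower after TTX than after 1 h of Bic, against 0.252% of 31765 genes, and in the LP 6 of 7 were called lower than after 2 h of Bic, against 1.62% of 31944 genes. Fos, Fosb, Jun, Junb and Jund were called in both protocols and Fosl2 in the LP, and Fosl1 was called in neither.

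After TTX in the SP, Fos had 585, 617, 560.2, 563 and 563 CPM, below all 5 libraries of 1 h Bic, and its fitted level was 55.5% of theirs (log2 fold change -0.85 ± 0.07, adjusted p = 8.1e-11). After TTX in the LP it had 1025, 1017, 1053, 859 and 782 CPM, below all libraries of 2 h Bic, at 61.2% of their level (log2 fold change -0.71 ± 0.09, adjusted p = 1.6e-06). Fos was thus lower in 5 of 5 preparations in either protocol.

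Junb had 498, 445, 509.7, 439 and 514 CPM after TTX in the SP and 704, 665, 645, 475 and 546 CPM in the LP. Its fitted level was 60.9% of that with Bic alone in the SP (log2 fold change -0.71 ± 0.09, adjusted p = 1.2e-06) and 54.1% in the LP (log2 fold change -0.89 ± 0.09, adjusted p = 9.6e-09). No library with TTX reached the Bic libraries of the same protocol. In the LP this was the largest passive effect among the 7 members.

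Fosb had 423, 437, 426, 407 and 462 CPM after TTX in the SP, all below 1 h Bic, and 1008, 906, 879.6, 676 and 745 CPM in the LP, where preparation 1 was above the lowest library of 2 h Bic. The log2 fold changes were -0.60 ± 0.08 and -0.51 ± 0.09 (adjusted p = 7.7e-06 and 0.00021). Jun, at 285 to 343 CPM in the SP and 308 to 499 CPM in the LP, fell by 0.60 ± 0.08 and 0.74 ± 0.11 on the log2 scale (adjusted p = 6.3e-06 and 2.3e-05). It was lower in 5 of 5 preparations in each protocol.

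Jund, at 229 to 254 CPM after TTX in the SP, was at the edge of the threshold with a log2 fold change of -0.33 ± 0.08 (adjusted p = 0.046). This call did not hold in 8 of 10 alternative fits, among them the paired fit (adjusted p = 0.076) and the fits without preparation 1, 7 or 8 (log2 fold changes -0.31, -0.30 and -0.27). In the LP Jund ranged over 235 to 349.8 CPM, below all libraries of 2 h Bic, and was called with a log2 fold change of -0.49 ± 0.08 (adjusted p = 4.3e-05).

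For the Fra genes the passive effect was less firm. Fosl2 had 253, 315, 271, 326 and 347 CPM after TTX in the SP (log2 fold change -0.34, 95% interval -0.51 to -0.18, adjusted p = 0.057), with preparation 3 above its own 1 h Bic library. It was called there without preparation 3 or 8, at log2 fold changes of -0.43 and -0.36. In the LP Fosl2 had 735, 706, 748, 626 and 713 CPM, at 84.7% of 2 h Bic (log2 fold change -0.24 ± 0.06, adjusted p = 0.021), a call that was lost without preparation 1, 6 or 7 (log2 fold changes -0.23, -0.22 and -0.21). Fosl1 had 1.47, 2.25, 2.32, 2.03 and 2.55 CPM in the SP and 7.47, 8.86, 7.98, 5.25 and 5.03 CPM in the LP, overlapping with Bic alone both times. Its log2 fold change was -0.57 in the SP (95% interval -0.93 to -0.21, adjusted p = 0.51; called without preparation 3, at -0.72) and -0.09 in the LP (95% interval -0.38 to 0.21, adjusted p = 0.79).

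A test of the difference between the passive effects of the SP and the LP called 0 of 7 members, against 0.256% of 34313 genes called in either direction. By edgeR 0 of 7 members had an unadjusted p under 0.05 here, and DESeq2 and the paired fit called 0 as well. The differences, LP minus SP, ran from -0.18 for Junb (95% interval -0.45 to 0.10) to 0.47 for Fosl1 (95% interval -0.02 to 0.97) on the log2 scale.

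Adding NMDA to TTX lowered most of the family in the SP and fewer members in the LP. In the SP, 6 of 7 members were called lower after TTX/NMDA than after TTX, against 3.32% of 32229 genes. In the LP 3 of 7 were called lower, Fosb, Fosl1 and Fosl2, against 11.8% of 32852 genes.

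In the SP, Fosl1 fell most. It had 0.467, 0.537, 0.513, 0.515 and 0.614 CPM after TTX/NMDA (12, 14, 13, 19 and 24 reads), all below the TTX libraries, and its fitted level was 24.9% of theirs (log2 fold change -2.01 ± 0.21, adjusted p = 2.1e-08). Fosb had 143, 209, 146, 179.8 and 159 CPM, at 38.6% of the level with TTX (log2 fold change -1.37 ± 0.08, adjusted p = 3.6e-14). These were the 2 largest active effects in the family.

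Fosl2 had 142, 189, 188, 185 and 189 CPM after TTX/NMDA in the SP, within the range of the control (135 to 197 CPM). At the addition, after 0.5 h of Bic, it had not been called above the control either. Its level was 58.7% of that with TTX (log2 fold change -0.77 ± 0.08, adjusted p = 6.9e-08). Fos had 336, 467, 318, 461 and 324 CPM, at 65.6% of the level with TTX (log2 fold change -0.61 ± 0.09, adjusted p = 1.3e-05). Neither gene had a library with TTX/NMDA that reached the TTX libraries.

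Junb had 300.4, 332, 226, 368 and 319 CPM, with a log2 fold change of -0.65 ± 0.09 against TTX (adjusted p = 4.7e-06). Jun, at 147 to 222 CPM, fell by 0.69 ± 0.08 on the log2 scale (adjusted p = 4.6e-07). Both were lower in 5 of 5 preparations. Jund was also lower in 5 of 5 preparations, at 153 to 237 CPM, but the groups overlapped and it was not called (log2 fold change -0.24, 95% interval -0.40 to -0.07, adjusted p = 0.11). It was called in the paired fit (log2 fold change -0.24, adjusted p = 0.032) and without preparation 8 (log2 fold change -0.26).

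In the LP the Fos-side genes other than Fos were lowered by NMDA. Fosb had 510.2, 650.1, 673, 489 and 503 CPM after TTX/NMDA, all below the TTX libraries, at 66.7% of their level (log2 fold change -0.58 ± 0.09, adjusted p = 2e-05). Fosl1 had 3.49, 4.82, 3.97, 3.93 and 2.88 CPM, at 55.2% (log2 fold change -0.86 ± 0.16, adjusted p = 0.00012). Fosl2 had 321, 482, 506, 379 and 354 CPM, at 57.5% (log2 fold change -0.80 ± 0.09, adjusted p = 9.1e-08). All 3 were lower in 5 of 5 preparations.

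Fos and Junb were not called lower in the LP. Fos had 974, 1271, 1203, 1009 and 876 CPM after TTX/NMDA, overlapping with the TTX libraries and higher than them in 4 of 5 preparations. Its log2 fold change was 0.16 (95% interval -0.02 to 0.35, adjusted p = 0.21) and 0.19 in the paired fit, where it was called higher (adjusted p = 0.0057). Junb had 645, 727, 798, 667 and 625 CPM, higher in 4 of 5 preparations, with a log2 fold change of 0.18 (95% interval 0.01 to 0.36, adjusted p = 0.14). In the paired fit Junb was called at 0.22 (adjusted p = 0.0098), and it was also called without preparation 1 (log2 fold change 0.26).

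Jun and Jund overlapped between TTX and TTX/NMDA in the LP, at 311 to 398 CPM and 262 to 313 CPM with TTX/NMDA. Their log2 fold changes were -0.17 (95% interval -0.37 to 0.04, adjusted p = 0.26) and -0.03 (95% interval -0.20 to 0.14, adjusted p = 0.83). Without preparation 8 Jun was called lower at -0.21.

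Other features of the cultures moved in this same comparison. The median log2 fold change over all genes tested was 0.112. All 6 astrocyte markers were called higher with TTX/NMDA, with a median log2 fold change of 0.84, and their summed level was 389 to 805 CPM with TTX and 688 to 1429 CPM with TTX/NMDA. In the oligodendrocyte lineage 4 of 6 markers were called higher. The neuronal markers summed to 7676 to 8558 CPM with TTX and 6674 to 7263 CPM with TTX/NMDA, without overlap, and 3 of 8 were called lower. In the SP the astrocyte sums overlapped, at 439 to 986 CPM with TTX and 439 to 882 CPM with TTX/NMDA, and 0 of 6 astrocyte markers were called. Among the neuronal markers Map2 and Slc17a7 were called lower and Gad1 higher in the SP. The part of these differences in the levels of the AP-1 genes was not tested.

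**Figure D3:**
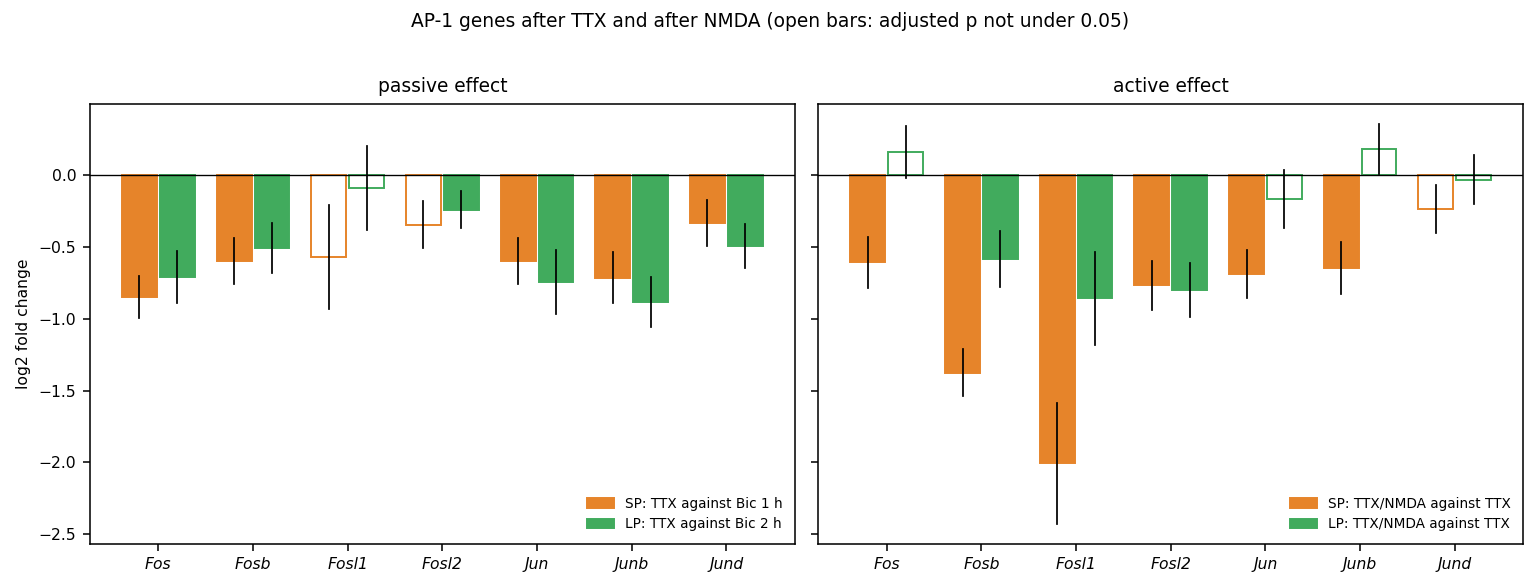
Log2 fold change (vertical axis) of each AP-1 gene for the passive effect (left, TTX against Bic) and the active effect (right, TTX/NMDA against TTX) in the SP and the LP. Bars are fitted values with 95% intervals and open bars were not called. On the right Fos and Junb are at -0.61 and -0.65 in the SP and at 0.16 and 0.18 in the LP.

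The difference between the active effects was tested directly. The active effect, LP minus SP, was called for 5 of 7 members, all higher (less negative or above 0) in the LP, against 0.722% of 35027 genes. For Junb the difference was 0.84 ± 0.14 on the log2 scale (adjusted p = 0.00011), for Fosb 0.80 ± 0.14 (adjusted p = 0.00025) and for Fos 0.78 ± 0.14 (adjusted p = 0.00042). In Fosl1 it was 1.16 ± 0.27 (adjusted p = 0.0087) and in Jun 0.53 ± 0.15 (adjusted p = 0.039). Each of these 5 differences had the same sign in 5 of 5 preparations. The call for Jun was lost in 4 of 10 alternative fits, among them those without preparation 3 or 6 (log2 differences 0.55 and 0.49). Fosl2 differed by -0.02 (95% interval -0.30 to 0.26, adjusted p = 1) and Jund by 0.22 (95% interval -0.04 to 0.48, adjusted p = 0.47). The SP and the LP differ in the length of Bic before the intervention and in the length of the intervention, which cannot be told apart.

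Set against cultures that fired throughout, TTX/NMDA left all 7 members lower in both protocols. In the SP the total effect was called for 7 of 7, against 3.41% of 31414 genes called lower, and in the LP for 7 of 7, against 11.1% of 32243 genes. In the LP total effect all 6 astrocyte markers (median log2 fold change 0.87) and 4 of 6 oligodendrocyte lineage markers were called higher, and 3 of 8 neuronal markers lower and 1 higher. In the SP total effect 2 of 8 neuronal markers, Map2 and Slc17a7, were called lower and 0 of 6 astrocyte markers were called. The part of these differences in the total effects was not tested. In the SP the fitted levels were 16.8% of 1 h Bic for Fosl1, 25.6% for Fosb, 36.7% for Fos, 39.2% for Junb, 41.4% for Jun, 46.6% for Fosl2 and 67.9% for Jund. In the LP they were 47.0% of 2 h Bic for Fosb, 48.8% for Fosl2, 52.1% for Fosl1, 53.2% for Jun, 61.5% for Junb, 68.6% for Fos and 69.8% for Jund. Total and passive effects share the Bic libraries, and passive and active effects the TTX libraries, so these values are not independent of one another.

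At the end of the LP the family was still above the control. All 7 members were called higher after LP TTX, against 4.33% of 31694 genes, and all 7 after LP TTX/NMDA, against 10.9% of 32092 genes. After LP TTX/NMDA all 6 astrocyte markers were called higher than in the control as well (median log2 fold change 0.97), and their part was not tested. Fosb stood at 83.2 times the control after TTX and 56.1 times after TTX/NMDA, and Fos at 25.7 and 29.2 times. Fosl2 was at 4.03 and 2.35 times, and Jund at 1.76 and 1.74 times.

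Because Bic came before the interventions, the libraries of 0.5 h Bic (SP) and 1 h Bic (LP) give the level at the moment of addition. In the SP, 5 of 7 members were called higher after TTX than at its addition, against 0.296% of 31379 genes. Of the 6 astrocyte markers 1, Gfap, was called higher here (median log2 fold change of the 6, 0.31), and the part of this difference was not tested. Fosl1 was 2.98 times, Fosb 1.89 times and Fosl2 1.54 times its level at 0.5 h (log2 fold changes 1.58 ± 0.23, 0.92 ± 0.10 and 0.62 ± 0.09, adjusted p = 2.3e-06, 2.7e-10 and 9.1e-07). All 5 preparations of these genes rose, and the groups did not overlap.

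For the other genes the step was small. Jun and Junb were called at log2 fold changes of 0.33 ± 0.07 and 0.33 ± 0.07 (adjusted p = 0.018 and 0.016). Junb was not called in the paired fit (adjusted p = 0.058), and both were lost without preparation 1 (0.30 and 0.31) or 8 (0.31 and 0.29), and Jun without preparation 3 (0.32). Over the genes that passed the low-count filter, without a block, both were lost too (0.32 and 0.32). Fos moved by 0.14 (95% interval -0.01 to 0.29, adjusted p = 0.95), although each of its TTX libraries was above each at 0.5 h, and Jund by 0.18 (95% interval 0.01 to 0.35, adjusted p = 0.95).

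With TTX/NMDA in the SP no member was called above its level at addition, and 4 of 7 were called below it, against 2.58% of 30883 genes. In this comparison 3 of 6 astrocyte markers, Slc1a3, S100b and Gja1, were called higher (median log2 fold change of the 6, 0.39) and the neuronal markers Map2 and Slc17a7 lower, and their part was not tested. Fos fell by 0.47 ± 0.09 on the log2 scale (adjusted p = 0.002), Fosb by 0.46 ± 0.12 (adjusted p = 0.018), Jun by 0.36 ± 0.08 (adjusted p = 0.0068) and Junb by 0.32 ± 0.09 (adjusted p = 0.03). All 4 overlapped between groups. Without preparation 6 the values of Fosb and Junb were -0.31 and -0.22 and neither was called, and Junb was also lost without preparation 1 (-0.31). Fosb was not called with DESeq2 (-0.47). Both Fosb and Junb were lost over the genes that passed the low-count filter (-0.46 and -0.32). With all 45 libraries in 1 fit Fosb, Junb and Jun were lost (-0.44, -0.30 and -0.34). Fosl1, Fosl2 and Jund had log2 fold changes of -0.43, -0.15 and -0.06 (adjusted p = 0.52, 0.49 and 0.79), and Fosl2 was called in the paired fit (log2 fold change -0.14, adjusted p = 0.012).

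In the LP, TTX left 3 of 7 members above their level at addition, against 4.34% of 31856 genes called higher, and 1 of 7 below it, against 2.85% called lower. Fosl1 (2.15 times), Fosl2 (1.84 times) and Fosb (1.29 times) were the members that rose, with log2 fold changes of 1.11 ± 0.17, 0.88 ± 0.07 and 0.37 ± 0.09 (adjusted p = 1e-05, 1.2e-11 and 0.0061). Junb fell by 0.38 ± 0.10 (adjusted p = 0.0067). The calls for Fosb and Junb were lost over the genes that passed the low-count filter (log2 fold changes 0.36 and -0.39). Fos had -0.14 (95% interval -0.30 to 0.02, adjusted p = 0.39), Jun -0.21 (adjusted p = 0.28) and Jund -0.07 (adjusted p = 0.7). Jun was called without preparation 3 or 6, at -0.31 and -0.25.

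With TTX/NMDA in the LP, 1 of 7 members was called, Jun, below its level at 1 h and against 10.2% of 32159 genes called lower. Its log2 fold change was -0.37 ± 0.08 (adjusted p = 0.00099). Fos (0.03), Fosl2 (0.08), Fosl1 (0.25), Fosb (-0.21), Junb (-0.20) and Jund (-0.09) were not called on the log2 scale. Fosb and Junb were called lower without preparation 3 (-0.35 and -0.31) or 6 (-0.30 and -0.28), and Fosl1 higher without preparation 8 (0.49). In this comparison too all 6 astrocyte markers were called higher, and their part was not tested.

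**Figure D4:**
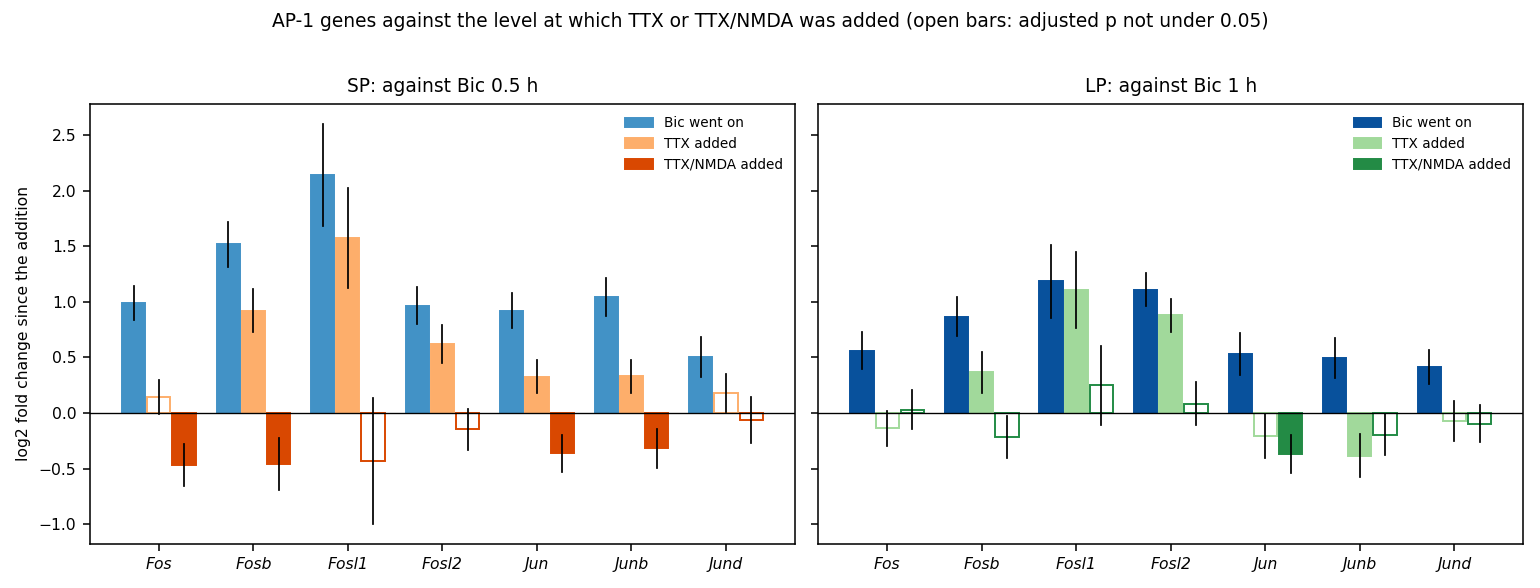
Log2 fold change (vertical axis) of each AP-1 gene between the moment of addition and the end of the protocol when Bic went on alone, when TTX was added and when TTX/NMDA was added, in the SP (left) and the LP (right). Bars are fitted values with 95% intervals, and open bars were not called. Fosb, Fosl1 and Fosl2 have filled bars above 0 with TTX in both panels, at 0.62 and 0.88 for Fosl2, and no gene has a filled bar above 0 with TTX/NMDA.

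With TBOA 1 of 7 members was called against 2 h Bic, Fosl2, which was lower, against 0.549% of 31706 genes. Fosl2 had 675, 716, 652, 694 and 689.8 CPM, all below the 2 h Bic libraries, at 83.4% of their level (log2 fold change -0.26 ± 0.06, adjusted p = 0.028). The call was lost in 4 of 10 alternative fits, among them those without preparation 1 or 6 (log2 fold changes -0.24 and -0.20).

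Fos had 1557, 1569, 1382, 1595 and 1219.7 CPM with TBOA, within the range of 2 h Bic (log2 fold change -0.06, 95% interval -0.23 to 0.11, adjusted p = 0.81). Fosb had 1130.2, 1142, 945, 1043 and 983 CPM and was lower in 5 of 5 preparations without being called (log2 fold change -0.17, 95% interval -0.32 to -0.02, adjusted p = 0.53). The remaining members had log2 fold changes of -0.24 (Fosl1), -0.09 (Jun), -0.20 (Junb) and -0.20 (Jund), with adjusted p from 0.23 to 0.68. Jund was called without preparation 7, at -0.27.

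Over the 9 conditions each member had its highest mean level after 2 h of Bic and its lowest in the control. Second was LP TBOA for Fos (1464 ± 161 CPM, SD, n = 5), Fosb, Jun, Junb and Jund, and LP TTX for Fosl1 (6.92 ± 1.70 CPM) and Fosl2 (706 ± 47.7 CPM). In Fosl2 all 2 h Bic libraries were above all libraries of the next condition, whereas in the other 6 members the first and second conditions overlapped. LP TTX/NMDA stood above 1 h Bic in the order for Fos, at a mean of 1067 ± 165 CPM against 1037 ± 94.7 CPM, and below it for Fosb, at 565 ± 88.8 CPM against 650.2 ± 97.6 CPM, with overlapping libraries both times. For all 7 members SP TTX/NMDA had the lowest mean of the treated conditions. There Fos (318 to 467 CPM), Fosb (143 to 209 CPM), Jun and Junb did not overlap with the control, and Fosl1 (0.467 to 0.614 CPM), Fosl2 (142 to 189 CPM) and Jund did.

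**Figure D5:**
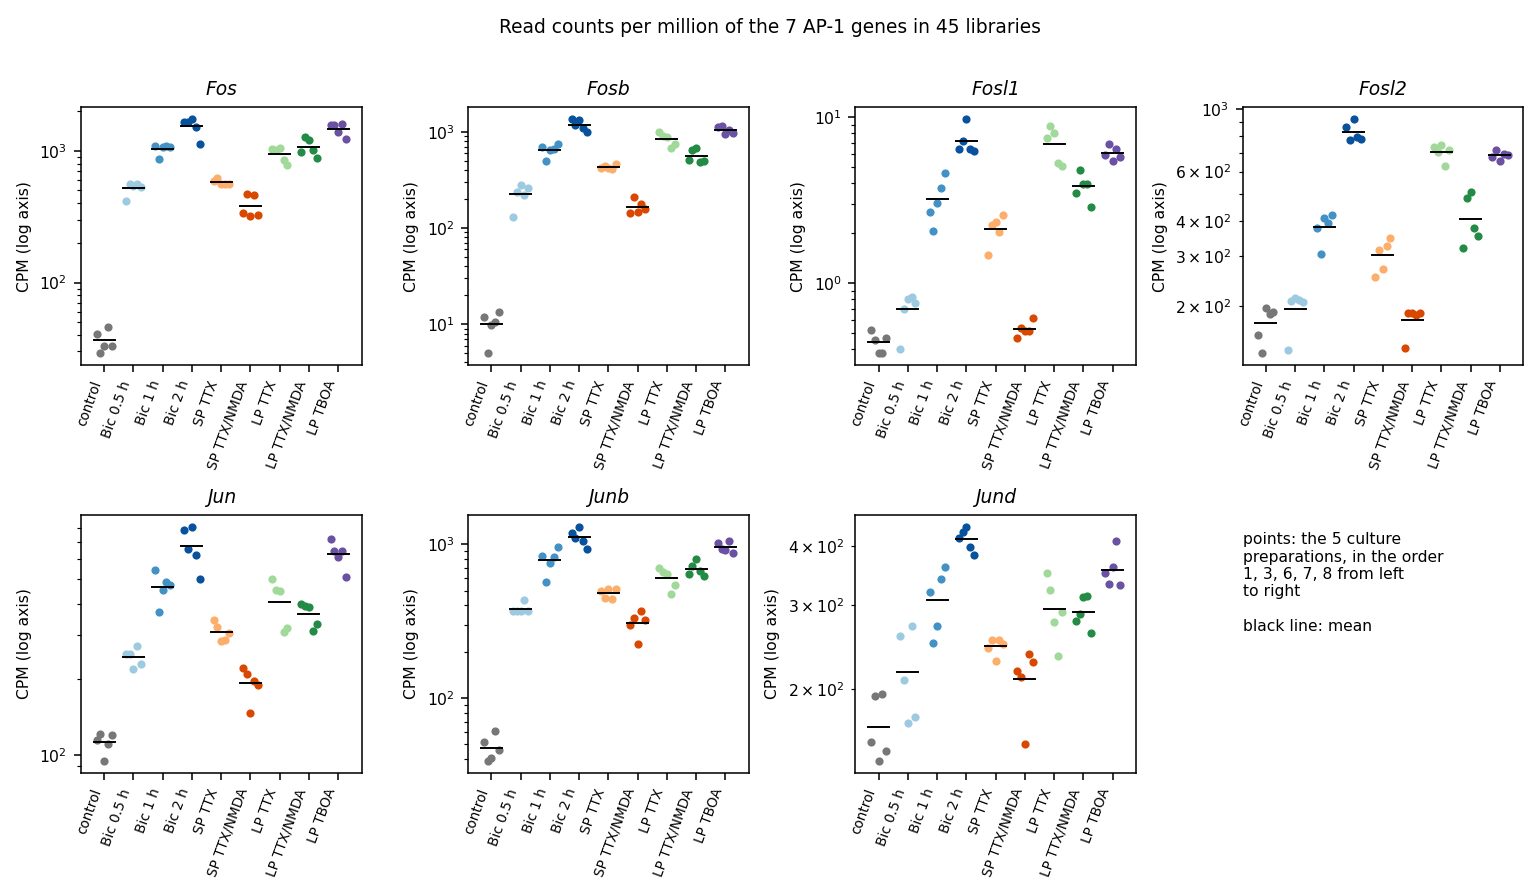
CPM of each AP-1 gene on a log axis in the 9 conditions. Points are the 5 culture preparations, and black lines the group means. Every gene is highest after 2 h of Bic, and SP TTX/NMDA lies within the control range in Fosl2 (142 to 189 CPM against 135 to 197 CPM) but not in Fos (318 to 467 CPM against 29.04 to 45.95 CPM).

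Across the 45 libraries, which share conditions and preparations, log2 CPM of the members correlated with Pearson's r from 0.74 (Fos with Fosl2) to 0.99 (Fos with Junb). Fosl1 and Fosl2 had an r of 0.96 with each other. Among 13585 other genes with a mean of at least 1 CPM, the profiles most like that of Fos were Npas4 (r = 0.98), an activity-dependent transcription factor of neurons, and the zinc finger factors Egr4 (0.97) and Egr1 (0.96). The same 3 genes came first for Fosb, with Egr4 at 0.98, and for Junb, with Npas4 at 0.99. For Fosl1 they were Tiparp (0.98), an ADP-ribosyltransferase, the orphan nuclear receptor Nr4a2 (0.98) and Errfi1 (0.98), a feedback inhibitor of the EGF receptor. For Fosl2 they were the clock gene Per1 (0.98), Arl5b (0.98) and Nr4a2 (0.98). Jun was closest to Plk2 (0.96), a polo-like kinase, Otud1 (0.96) and Egr4 (0.96), and Jund to Otud1 (0.91), Pim3 (0.90) and Pard6a (0.90). These are descriptions over 45 libraries.

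Among 15 genes of bZIP factors that can pair with AP-1 subunits or share their sites, 4 were called higher after 2 h of Bic (4.24% of all genes), with a median log2 fold change of 0.155 against -0.0061 over all genes tested. Atf3 went from a mean of 10.3 to 253 CPM (log2 fold change 4.64, adjusted p = 6.2e-15), the small Maf gene Maff from 3.01 to 50.3 CPM (3.98, adjusted p = 1e-22) and Mafk from 12.7 to 27.2 CPM (1.08, adjusted p = 8.3e-10). After 0.5 h Maff was the 1 gene called of the 15, at 1.26 (adjusted p = 3.9e-06), against 0.289% of all genes called higher. Atf3 and Maff were the 2 called lower in the SP passive effect, at -0.81 and -0.65 (0.252% of all genes). They were also the 2 called lower in the SP active effect, at -1.50 and -1.05 (3.32% of all genes), where Maf was the 1 called higher, at 0.33 (0.956% of all genes). In the LP active effect 3 of the 15 were called higher and 4 lower, against 11.6% and 11.8% of all genes, Atf3 among the lower at -0.63 and Nfe2l2 among the higher at 0.81. There, all 6 astrocyte markers and 4 of 6 oligodendrocyte lineage markers were called higher too, and their part was not tested. Maff was called in the difference of the active effects, LP minus SP, at 1.22 (adjusted p = 0.0065). With TBOA 1 was called, Atf3 at -0.35 (adjusted p = 0.0055), against 0.549% of all genes called lower.

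Of 13 genes for factors and kinases upstream of Fos and Jun, 2 were called higher and 1 lower after 2 h of Bic (4.24% and 4.78% of all genes). Srf, whose protein binds the serum response element, went from 34.1 to 61.1 CPM (0.83, adjusted p = 1.9e-09), its partner Elk4 from 19.4 to 26.99 CPM (0.46, adjusted p = 0.00044) and Creb1 from 48.9 to 30.5 CPM (-0.69, adjusted p = 6.9e-08). In the SP active effect Srf (-0.72) and Elk4 (-0.35) were called lower (3.32% of all genes). The LP active effect called 8 lower and 1 higher, against 11.8% and 11.6% of all genes, with a median log2 fold change of -0.252 against 0.112 over all genes. Srf was at -0.70 and the JNK gene Mapk8 at -0.53, and Elk3 was the gene called higher, at 0.89. All 6 astrocyte markers and 4 of 6 oligodendrocyte lineage markers were called higher in the LP active effect, and 3 of 8 neuronal markers lower. The part of these differences was not tested.

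Of 11 genes for proteins that bind AU-rich elements, Zfp36l2, whose protein destabilises such transcripts, was the 1 called higher after 1 h (0.73, adjusted p = 0.00057) and after 2 h of Bic (0.47, adjusted p = 0.041), against 0.965% and 4.24% of all genes. Tia1 was the 1 called lower after 2 h (-0.40), against 4.78% of all genes. The LP passive effect called 3 higher (3.03% of all genes) and 1 lower (1.62% of all genes), Zfp36l2, at -0.86. In the LP active effect 4 were called higher, against 11.6% of all genes, with a median log2 fold change over the 11 of -0.0138 against 0.112 over all genes. Zfp36l1 went from 5.29 to 13.2 CPM (1.30), Zfp36l2 from 6.32 to 15.4 CPM (1.27) and Zfp36 from 0.767 to 1.31 CPM (0.83), in the comparison in which astrocyte markers were higher too.

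Of 12 genes described elsewhere as AP-1 targets, 3 were called higher at 1 h and the same 3 at 2 h, against 0.965% and 4.24% of all genes. They were Penk, the precursor of enkephalins (0.63 and 2.35), the neuronal pentraxin Nptx2 (0.76 and 2.26) and the secretogranin Scg2 (0.55 and 1.36). In the SP active effect Nptx2 (-0.63) and Scg2 (-0.34) were called lower (3.32% of all genes). In the LP passive effect Penk (-1.18) and Nptx2 (-0.51) were called lower (1.62% of all genes). The LP active effect called 2 lower, Nptx2 at -1.14 among them, and 6 higher, with Timp1 at 0.94 and Plau at 0.88, against 11.8% and 11.6% of all genes. The median log2 fold change of the 12 was 0.487 against 0.112 over all genes. All 6 astrocyte markers and 4 of 6 oligodendrocyte lineage markers were called higher in this comparison too, and their part was not tested. TBOA called 2 lower, against 0.549% of all genes, Nptx2 at -0.85 (adjusted p = 0.0013) and Penk at -0.84 (adjusted p = 8.2e-06).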

How the data were processed

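Per the labels and the study's methods, directional libraries were made from poly-A RNA and read from 1 end on an Illumina NextSeq. The authors aligned the reads with STAR (2.5.4b) to GRCm38 and counted them per gene of Ensembl release 94 with featureCounts (1.6.5) on the sense strand, without multi-mapping reads and without reads over more than 1 gene. They deposited raw read counts for 54532 genes, without normalization. Reads shared by near-identical sequences and isoforms of 1 gene are therefore not resolved.

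Gene symbols were matched for 54409 of the gene identifiers. Here the counts were scaled by TMM and tested with edgeR (4.0.16, limma 3.58.1, R 4.3.3) by quasi-likelihood, without a block and on the libraries of each comparison, over genes with at least 1 read; differences between protocols were tested as interaction terms. The authors used DESeq2, run here (1.42.0) as an alternative. SE is the absolute log2 fold change over the square root of F. RPKM used exon lengths of GENCODE M21 (GRCm38).

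Every preparation contributed 1 library to each condition, and the label of the culture preparation gives the pairing. Deviations from condition means correlated at a mean of 0.43 within a preparation and -0.11 between preparations. Such deviations cancel out over the preparations of a condition, so the second value follows largely from the first and is no separate evidence of pairing. The paired fit used the preparation as a block over genes that passed filterByExpr. Other alternatives were RLE scaling, filterByExpr alone, all 45 libraries in 1 fit and leaving out each preparation. All 45 columns were mapped to samples, and no 2 libraries were identical. Scripts were tested on simulated data.

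The 7 members and the lists of related genes were chosen with earlier results of these data known. From each list the up to 3 called genes of largest absolute log2 fold change per comparison could be named, and for each member the 3 genes of highest correlation. The result of 1 gene of these lists is not reported here.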

Additional observations from a re-analysis of the deposited data

Results flagged for a closer look

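In 7 of 63 groups of 5 libraries, 1 library stood apart from the other 4 by Dixon's test at the 95% level, which chance alone gives in about 1 of 20 groups. After 0.5 h of Bic, preparation 1 was low for Fos (417 CPM, the others 529.6 to 559 CPM), for Fosl1 (0.400 CPM, the others 0.698 to 0.819 CPM) and for Fosl2 (139 CPM, the others 205 to 213 CPM). In that group preparation 7 was high for Junb (432 CPM, the others 366 to 369 CPM). After 1 h of Bic, preparation 3 was low for Fos (869 CPM, the others 1068 to 1089 CPM). After SP TTX/NMDA, preparation 1 was low for Fosl2 (142 CPM, the others 185 to 189 CPM) and preparation 6 for Jund (153 CPM, the others 212 to 237 CPM).

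The active effect of NMDA differed between the LP and the SP by an interaction test for 5 members. The difference, LP minus SP on the log2 scale, was 0.78 for Fos, 0.80 for Fosb, 1.16 for Fosl1, 0.53 for Jun and 0.84 for Junb. These libraries also differ in the length of Bic and of the intervention, and astrocyte markers were higher after LP TTX/NMDA. The part of either was not tested.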

How the results depend on the processing

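Over the 7 members, 20 comparisons and 10 alternatives, 1322 values kept their direction and their side of the threshold, 43 kept the direction and lost the call, 21 kept the direction and gained it, and 14 changed direction. None of these 14 was called before or after, and 13 of them came from leaving out 1 preparation and 1 from the paired fit, Jund in the LP active effect (0.0031 on the log2 scale). The leave-one-out log2 fold changes of the values that changed direction ran from -0.20 to 0.0071 for Fosl1 in the LP passive effect, -0.13 to 0.052 for Jund in the LP active effect, -0.10 to 0.0087 for Fos in spillover, -0.16 to 0.0056 for Jund in SP TTX/NMDA since addition, -0.16 to 0.044 for Jund in LP TTX since addition, -0.094 to 0.11 for Fos in LP TTX/NMDA since addition, -0.047 to 0.17 for Fosl2 in LP TTX/NMDA since addition, -0.18 to 0.0025 for Jund in LP TTX/NMDA since addition and -0.086 to 0.055 for Fosl2 in the difference of the active effects. The paired fit, with the replicate as a block, moved the number of members called in the LP active effect from 3 to 5, with Fos and Junb higher. It also lost Jund in the SP passive effect and Junb in SP TTX since addition, both of which were lost with filterByExpr alone as well. The paired fit gained Jund in the SP active effect and Fosl2 in SP TTX/NMDA since addition, and it changed no other call of a member. Over genes that passed filterByExpr, spillover called 0 members (1 in the main fit), SP TTX since addition 3 (5), SP TTX/NMDA since addition 2 (4) and LP TTX since addition 2 (4). With all 45 libraries in 1 fit, spillover called 0, SP TTX since addition 3 and SP TTX/NMDA since addition 1. The cause was not tested. Leaving out 1 preparation at a time gave 0 to 2 members for spillover, 3 to 5 for SP TTX since addition, 2 to 4 for SP TTX/NMDA since addition and 1 to 3 for LP TTX/NMDA since addition. Counting precision limits Fosl1, with 5 to 22 reads per library in the control and 0.5 h Bic; the other members had at least 110 reads in each library.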
